A study of Mus musculus with 12 samples.

Results

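The genes described here are 8 enzyme genes of the citric acid cycle (Cs, Idh3a, Idh3b, Ogdh, Dlst, Suclg1, Fh1 and Mdh2) and Pcx, which encodes pyruvate carboxylase. They were taken by symbol from the deposited expression table, which held all 9 among its 16670 genes. The table covers 12 RNA libraries of fat from the inguinal depot, which lies beneath the skin, of female C57BL/6 mice labelled Kdm5c+/– or Kdm5c+/+ (WT). Each pool was tissue of 2 mice, digested with collagenase and spun into a floating layer of mature adipocytes and a pellet of stromal vascular cells, which include progenitor, vascular and immune cells. The 6 pools, 3 per genotype, gave 4 groups of 3 libraries: mature adipocytes and stromal vascular cells, each labelled Kdm5c+/– or wild type. The labels give no age and do not say which part of Kdm5c was removed or in which cells. Levels are in CPM, reads of a gene per 1000000 reads of all genes listed. The comparisons ask how the fractions differ, and whether the genotypes differ within a fraction.

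The citric acid cycle is the mitochondrial pathway that oxidises acetyl groups, derived from pyruvate, fatty acids and amino acids, to carbon dioxide, and passes their electrons to the respiratory chain. In fat cells it is also the source of citrate, which leaves the mitochondrion and is split in the cytosol into acetyl-CoA for fatty acid synthesis. Each citrate that leaves removes the oxaloacetate it was made from. Pyruvate carboxylase, a biotin-dependent mitochondrial enzyme, makes oxaloacetate from pyruvate and so refills the cycle, a reaction called anaplerosis. White adipocytes are known for a high level of this enzyme.

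Libraries held 21836878 to 29434125 reads over the genes listed, and 3 reads came to between 0.102 and 0.137 CPM, far below every value given here for the 9 genes. The fractions carried the markers of their labels. The summed level of 8 adipocyte markers was 24553 to 30882 CPM in mature adipocytes and 4273 to 7317 CPM among the stromal vascular libraries, where most of it was Fabp4, a gene of capillary endothelium too. The sum of 6 progenitor markers was 63.7 to 146 CPM in the former and 5404 to 7854 CPM in the latter, and that of 6 endothelial markers 83.7 to 251 CPM and 4440 to 6416 CPM. Kdm5c itself did not separate the genotypes: its ratio of Kdm5c+/– to wild type was 0.948 among mature adipocytes (95% interval 0.810 to 1.11) and 1.01 among stromal vascular libraries (0.895 to 1.14). The genotype is therefore given throughout as the label of a library. The pools are separate pools of mice, and fractions with the same genotype and pool number are taken to share their mice.

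All 9 genes were higher in mature adipocytes than in the stromal vascular fraction, and for none of them did the 6 libraries of one fraction overlap the 6 of the other. Pcx stood highest of the 9 in mature adipocytes and showed the largest difference, 31.4-fold on the scale of log2(CPM + 1). The 8 cycle genes were between 2.58-fold (Ogdh) and 6.35-fold (Idh3a) higher. By limma with Benjamini-Hochberg adjustment over 14193 genes, 9 of 9 passed an adjusted p of 0.05 as higher in mature adipocytes, with adjusted p from 2.23e-11 (Mdh2) to 9.76e-08 (Pcx). Of all genes tested, 28.7% passed as higher in mature adipocytes and 59.1% as higher in the stromal vascular fraction, and the median log2 difference was 1.74 over the 9 and -0.45 over all genes tested. This fit left the pools unpaired. With the pool as a replicate block, the adjusted p of the 9 by limma ran from 9.18e-09 (Cs) to 6.64e-08 (Pcx). In bulk RNA, more cells that express a gene and more RNA of it per cell cannot be told apart.

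**Figure D1:**
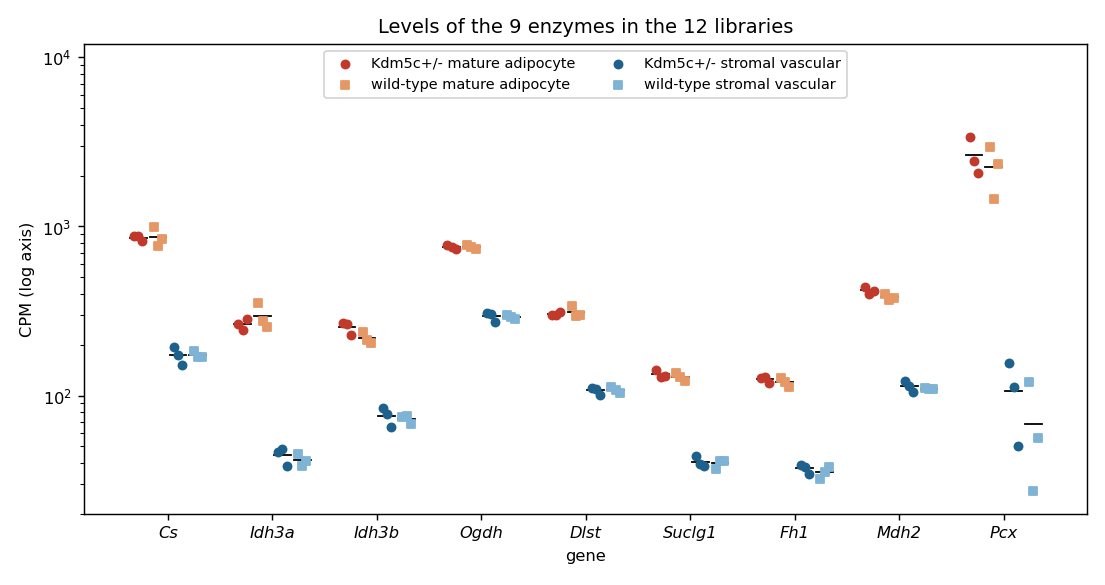
CPM (log axis) of the 9 genes in each of the 12 libraries, with points for single libraries and a line at the mean of each group of 3. In every gene all mature adipocyte points lie above all stromal vascular points, and the Pcx points are spread most, from 1457 to 3399 CPM and from 27.4 to 155 CPM.

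Pcx was among the most abundant transcripts of the adipocyte layer, at rank 29 of 16670 genes by mean CPM there and at rank 2678 in the stromal vascular fraction. In mature adipocytes it read 3399, 2446 and 2063 CPM in Kdm5c+/– pools 1, 2 and 3, and 2952, 1457 and 2342 CPM in wild-type pools 1, 2 and 3. In the stromal vascular fraction it read 155, 112 and 50.3 CPM in the Kdm5c+/– pools and 120.4, 27.4 and 56.1 CPM in the wild-type pools. The lowest adipocyte library lay 9.39-fold above the highest stromal vascular library, and the log2 difference was 4.97 ± 0.37 (SE, adjusted p = 9.76e-08, 6 libraries per fraction). Without the 3 stromal vascular libraries with over 100 CPM of Adipoq, the adipocyte hormone adiponectin, this difference was 5.70 (adjusted p = 5.18e-07). Those 3 also held the most Pcx of their fraction, so the rise was set by the choice of libraries.

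Pcx varied more between pools than any of the 8 cycle genes. Its coefficient of variation (SD over mean, 6 libraries) was 27.8% in the adipocyte libraries and 56.9% in those of the pellet, against 2.35% to 13.6% and 4.14% to 9.72% for the 8. The median coefficient was 10.1% over the 6630 genes with a mean of 20 CPM or more in mature adipocytes, and 8.71% over the 7804 such genes in the stromal vascular fraction. Of those genes, 92.7% varied less than Pcx in the former and 99.6% in the latter. The spread ran across the genotype labels: Kdm5c+/– pool 1 and wild-type pool 1 were highest and wild-type pool 2 was lowest in both fractions.

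The order of the 6 pools by Pcx was the same in both fractions, a feature noticed after the values were seen. It ran, from high to low, Kdm5c+/– pool 1, wild-type pool 1, Kdm5c+/– pool 2, wild-type pool 3, Kdm5c+/– pool 3 and wild-type pool 2. No test was made of this order.

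The stromal vascular levels of Pcx and of the adipocyte hormone adiponectin were high in the same 3 pools. Adiponectin RNA (Adipoq) read 165, 169 and 55.8 CPM in the stromal vascular libraries of the Kdm5c+/– pools and 105, 45.4 and 59.5 CPM in those of the wild-type pools, so that the 3 libraries with the most Adipoq were also those with the most Pcx. Set against the adipocytes of the same pool, the stromal vascular level was 1.06% to 3.73% for Adipoq and 1.88% to 4.60% for Pcx. It was 12.8% to 19.7% for Idh3a, 18.3% to 22.2% for Cs and 36.8% to 40.3% for Ogdh, and the other 5 cycle genes lay between 25.3% and 37.2%. The adipocyte level of a gene times the Adipoq share of the same pool came to 51.9% to 81.2% of the stromal vascular level of Pcx (median 61.8%), and to between 2.74% and 20.4% of that of the 8 cycle genes. For Pcx the figure depends on the marker taken. With Plin1, Lep, Retn or Cidec, which stood at 1.04% to 4.13% of their adipocyte level, the medians were 67.4%, 71.5%, 69.2% and 80.7%. Lipe stood at 5.75% to 10.9%, Pparg at 22.6% to 46.6% and Fabp4 at 30.7% to 51.0%, and with each of these the product exceeded the stromal vascular level of Pcx in every pool (for Lipe, 195% to 330% of it). The adipocyte markers were thus not lower by 1 common share, and what part adipocyte RNA had in these values was not tested beyond this arithmetic.

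**Figure D2:**
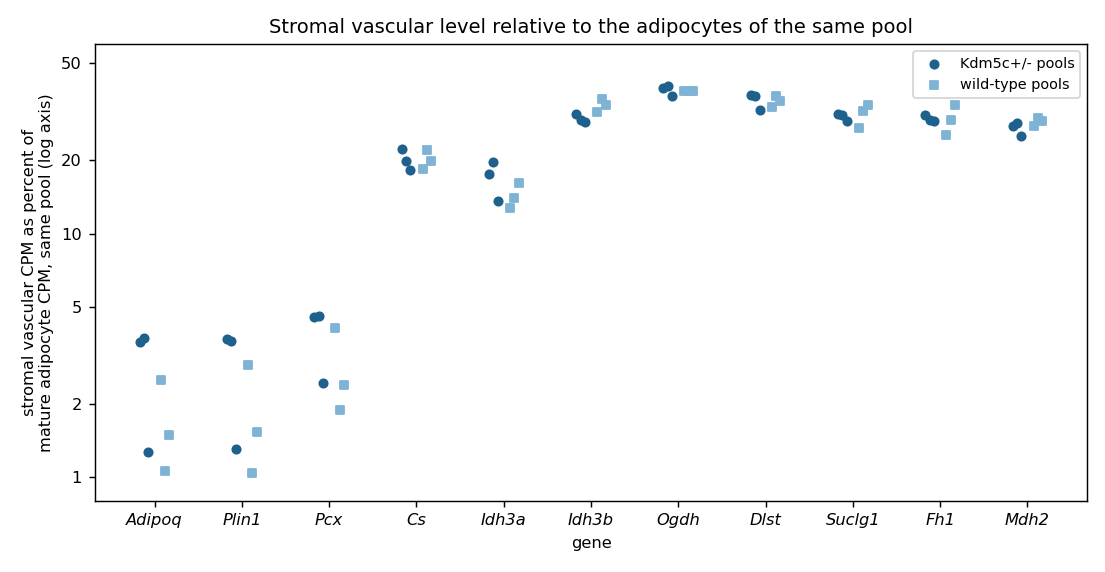
Stromal vascular CPM as a percentage of mature adipocyte CPM of the same pool (log axis), with 1 point per pool, for the adipocyte markers Adipoq and Plin1 and the 9 genes. Pcx lies at 1.88% to 4.60%, next to Adipoq at 1.06% to 3.73%, and the 8 cycle genes lie at 12.8% or more.

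Over the 12 libraries, the 3 genes of 14192 with profiles nearest to that of Pcx were Scd1, Mrap and Alb, at root mean square distances of 0.19, 0.22 and 0.23 in mean-centred log2(CPM + 1). Scd1 encodes stearoyl-CoA desaturase, which makes monounsaturated fatty acids. It read 50658 to 70297 CPM in the adipocyte libraries and 727 to 3519 CPM in those of the pellet, with wild-type pool 2 lowest in both. Mrap, an accessory protein of the adrenocorticotropin receptor, read 142 to 253 CPM and 2.29 to 10.6 CPM, and Alb, albumin, 97.9 to 158 CPM and 0.943 to 5.44 CPM. Of the 14 listed genes that export or handle citrate and malate, 6 had their lowest adipocyte value in wild-type pool 2. The share of all genes with their lowest value there was not counted. Slc25a1 and Me1 are named among the 6 after their values were seen. Slc25a1, the mitochondrial citrate carrier, read 1072, 577 and 616 CPM in the Kdm5c+/– adipocytes and 795, 283 and 554 CPM in the wild-type adipocytes. Me1, the cytosolic malic enzyme, which returns malate to pyruvate with the release of NADPH, read 1158, 630 and 759 CPM and 1081, 376 and 706 CPM. In Slc25a1, Me1 and Pcx alike, pool 1 of each genotype was high and wild-type pool 2 lowest. Slc25a1 and Me1 were named from the genes lowest in that pool, so this likeness was in part set by the choice.

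Pcx lies on chromosome 19 (GRCm38, 4510472 to 4621752, plus strand, GENCODE). The gene is known to have a distal and a proximal promoter, of which the proximal one is the one described for fat and liver. The RefSeq promoter table of GRCm38.p6 holds both starts, 83847 bases apart. They are shown because the CPM are counts per gene and do not say which start the adipocyte transcripts used. Each window is the 250 bases before the start on the plus strand, outside all annotated exons, with capitals on the matches to 7 motifs searched on both strands.
Pcx distal start, chr19:4510222-4510471: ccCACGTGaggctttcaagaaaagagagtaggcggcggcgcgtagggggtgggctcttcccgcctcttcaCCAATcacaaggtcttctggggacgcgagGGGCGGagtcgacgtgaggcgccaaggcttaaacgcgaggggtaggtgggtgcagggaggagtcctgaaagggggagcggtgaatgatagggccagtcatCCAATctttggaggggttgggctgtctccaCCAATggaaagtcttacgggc
Pcx proximal start, chr19:4594069-4594318: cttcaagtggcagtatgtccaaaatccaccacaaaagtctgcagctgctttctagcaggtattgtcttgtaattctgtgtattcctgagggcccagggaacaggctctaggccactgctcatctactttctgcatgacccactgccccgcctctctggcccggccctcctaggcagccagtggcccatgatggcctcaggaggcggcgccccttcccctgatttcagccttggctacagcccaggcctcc
Cs start, chr10:128337477-128337726: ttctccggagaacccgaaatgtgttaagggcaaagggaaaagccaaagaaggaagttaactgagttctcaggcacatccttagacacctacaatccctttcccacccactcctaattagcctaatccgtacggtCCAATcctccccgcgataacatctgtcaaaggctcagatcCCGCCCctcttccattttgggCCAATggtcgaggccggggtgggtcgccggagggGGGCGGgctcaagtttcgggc

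The motifs were the E-box (CACGTG), the CCAAT box (CCAAT), the GC box (GGGCGG), the cyclic AMP response element (TGACGTCA), the estrogen-related receptor element (TCAAGGTCA), the core of the nuclear respiratory factor 1 site (GCGCATGC) and the sterol regulatory element (TCACNCCAC, with N for any base). The distal window of Pcx held 1 E-box, 248 bases before the start, 1 GC box and 3 CCAAT boxes, 16 CG dinucleotides and 60.8% G or C. The proximal window held 4 CG dinucleotides and 58.0% G or C, and none of the 7 motifs in these letters. The window of Cs held 2 CCAAT boxes, 55 and 116 bases before its start, 2 GC boxes and 13 CG dinucleotides. Over the 32851 windows of the table, the median was 6 CG dinucleotides and 52.4% G or C, 33.8% of windows held a CCAAT box, 32.7% a GC box and 6.02% an E-box. The table holds windows for 8 of the 9 genes, 14 in all, of which several of Ogdh overlap. Of the 14, 8 held a CCAAT box, 7 a GC box, 4 an E-box and 4 the cyclic AMP response element (1.55% of all windows). The nuclear respiratory factor 1 core was in 2 of the 14 (2.26% of all windows), and the estrogen-related receptor element and the sterol regulatory element were in 0 (0.387% and 1.05%). Overlapping windows of Ogdh hold the same matches, so these counts exceed the number of separate matches. Apart from that of Mdh2, the windows with the cyclic AMP response element were of Ogdh and held the same match. Both windows with the nuclear respiratory factor 1 core were of Ogdh and held the same match. A match is a run of letters and not a site shown to be bound.

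Entry into the cycle was led by Cs, citrate synthase, which joins acetyl-CoA to oxaloacetate. Cs read 877, 874 and 823 CPM in the Kdm5c+/– adipocytes and 993, 764 and 848 CPM in the wild-type adipocytes. It read 195, 174 and 151 CPM in the stromal vascular libraries of the Kdm5c+/– pools and 184, 169 and 168 CPM in those of the wild-type pools. The fractions were far apart and the genotype labels overlapped in both, and the log2 difference between fractions was 2.31 ± 0.08 (SE), a 4.96-fold difference (adjusted p = 9.33e-11, limma). The nearest profiles to that of Cs were those of Pdha1, a subunit of pyruvate dehydrogenase, Abcb8, a mitochondrial transporter, and Sod2, the mitochondrial superoxide dismutase, at distances of 0.09, 0.10 and 0.10.

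Idh3a and Idh3b encode the α and β subunits of the NAD-dependent isocitrate dehydrogenase, an assembly of α, β and γ subunits, and they differed between fractions by unequal amounts. Idh3a, the catalytic subunit, read 244 to 283 CPM in the Kdm5c+/– adipocytes and 255 to 351 CPM in the wild-type adipocytes, and 38.3 to 48.2 CPM over the 6 stromal vascular libraries. Idh3b read 227 to 270 CPM, 203 to 237 CPM and 65.5 to 84.1 CPM in the same groups. The adipocyte levels of the 2 genes overlapped, while in the stromal vascular fraction every Idh3b value lay above every Idh3a value. The log2 differences between fractions were 2.67 ± 0.09 for Idh3a and 1.65 ± 0.08 for Idh3b (SE), and that of the third subunit gene, Idh3g, was 1.48 ± 0.05. Idh3b shares exon sequence with Nop56 on the opposite strand. The libraries are strand-specific, and whether the counting used the strand is not given in the sources used here.

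Ogdh and Dlst encode the first and second components of the 2-oxoglutarate dehydrogenase complex, and they showed the smallest differences of the 9. Ogdh read 778, 756 and 737 CPM in the Kdm5c+/– adipocytes and 774, 758 and 736 CPM in the wild-type adipocytes, a coefficient of variation of 2.35% that was below that of all but 0.468% of the 6630 genes. It read 308, 305 and 271 CPM and 298, 292 and 284 CPM in the corresponding stromal vascular libraries, which was the highest mean of the 9 in that fraction. The log2 difference was 1.37 ± 0.05 for Ogdh and 1.50 ± 0.05 for Dlst (SE). Dlst read 294 to 339 CPM in the adipocyte libraries and 101 to 112 CPM in the others. Dld, the third component, which the complex shares with pyruvate dehydrogenase, differed by 1.83 ± 0.06.

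The later steps lay close together. Suclg1, the subunit that succinyl-CoA ligase keeps in both its ATP-forming and GTP-forming versions, read 122 to 141 CPM in adipocytes and 37.0 to 43.7 CPM in the stromal vascular libraries, a log2 difference of 1.69 ± 0.06 (SE). Fh1, fumarase, read 112 to 129 CPM and 32.2 to 39.1 CPM, a difference of 1.74 ± 0.06. Mdh2, the mitochondrial malate dehydrogenase that remakes oxaloacetate, read 367 to 440 CPM and 105 to 122 CPM, a difference of 1.83 ± 0.05. These 3 were between 3.23-fold and 3.55-fold higher in mature adipocytes. The profiles of Suclg1 and Fh1 were among each other's 3 nearest, at a distance of 0.06, and the 2 nearest to Mdh2 were Sdhb and Sdha, subunits of succinate dehydrogenase.

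**Figure D3:**
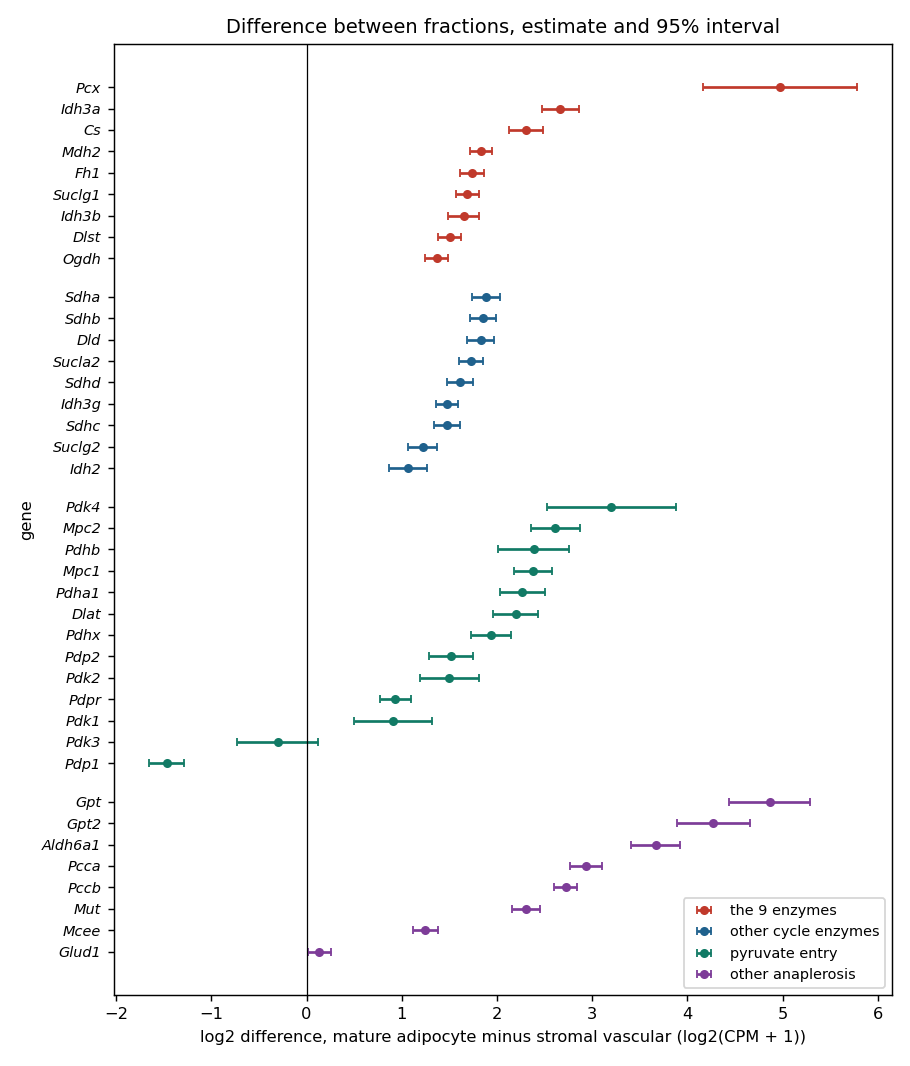
Log2 difference between fractions, mature adipocyte minus stromal vascular on the scale of log2(CPM + 1), with the estimate and 95% interval for the 9 genes and for genes of the lists of other cycle enzymes, pyruvate entry and other anaplerosis. The 9 lie between 1.37 (Ogdh) and 4.97 (Pcx), all right of 0, and Pdp1 and Pdk3 lie left of it.

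Per kilobase of merged exon in GENCODE, the order of the 9 changed from one fraction to the other. In mature adipocytes Pcx led at 514 ± 143 CPM per kilobase (SD, n = 6), followed by Cs at 149 ± 13.2, Ogdh at 139 ± 3.25 and Mdh2 at 112 ± 7.41. Cs and Ogdh overlapped in that order, and Pcx overlapped none of the others. Idh3b at 68.9 and Idh3a at 55.0, which overlapped, came next. Fh1 at 36.1 and Dlst at 32.1 overlapped too, and Suclg1 was last at 28.5. In the stromal vascular fraction Ogdh led at 53.7 ± 2.55 CPM per kilobase, above Mdh2 at 31.3 ± 1.66 and Cs at 30.0 ± 2.60, which overlapped. Pcx had rank 5 there, at 18.3 ± 10.4, and its libraries, from 5.77 to 32.6, overlapped those of all the others but Ogdh. Dlst and Fh1 overlapped at 11.3 and 10.6 CPM per kilobase, as did Suclg1 and Idh3a at 8.68 and 8.46. These lengths merge the exons of all transcripts of a gene, so a gene with unused long exons reads too low.

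Within a library, a ratio to Cs does not depend on how libraries are scaled. Pcx stood at 2.80 ± 0.64 times Cs in mature adipocytes (SD, n = 6) but at 0.488 ± 0.246 times Cs in the stromal vascular fraction. Idh3a also stood higher against Cs in mature adipocytes, at 0.323 ± 0.033 and 0.248 ± 0.017. The other 6 stood lower against Cs in mature adipocytes: Ogdh was at 0.881 ± 0.069 against 1.69 ± 0.08 in the stromal vascular fraction, Dlst at 0.357 and 0.623, and Mdh2 at 0.465 and 0.645. The ratio of Idh3b was 0.274 and 0.429, that of Suclg1 0.153 and 0.232, and that of Fh1 0.143 and 0.209. In none of the 8 ratios did the fractions overlap, and each gave an exact permutation p of 0.00216 (two-sided, adjusted 0.00216 over 8), the smallest that 6 against 6 can give. That test exchanged the libraries freely and left the pools unpaired. By sign flips over the 6 pools, which pair the fractions by number, all 8 passed at an adjusted p of 0.05. The smallest p that sign flips of 6 pools can give is 0.03125. The log2 differences of the ratio were 2.68 ± 0.38 for Pcx, 0.38 ± 0.07 for Idh3a and from -0.48 ± 0.06 (Mdh2) to -0.95 ± 0.05 (Ogdh) for the other 6. All 8 share the values of Cs, so they are not independent.

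**Figure D4:**
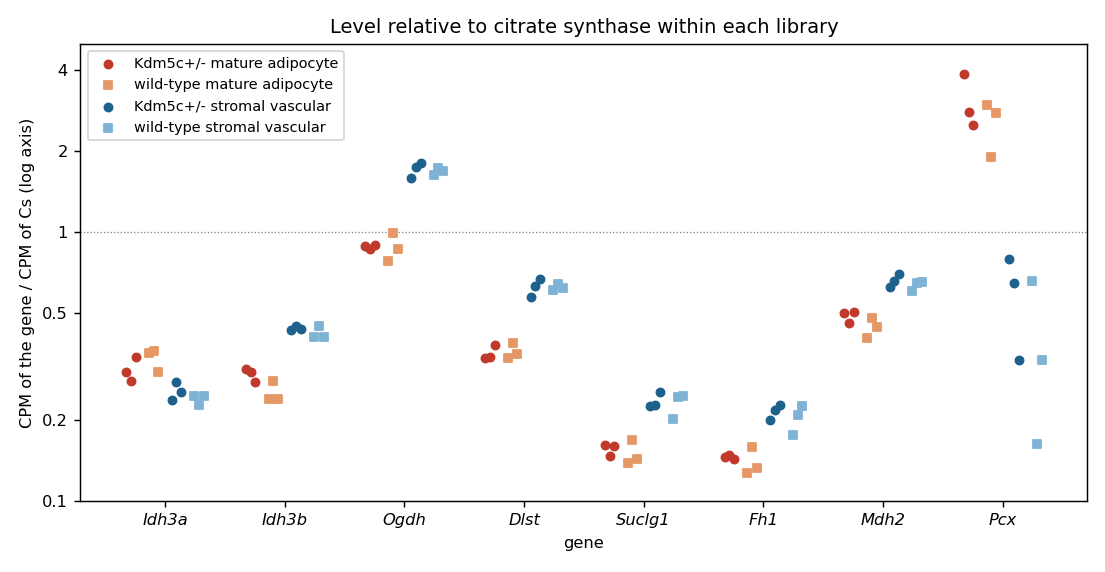
CPM of each of 8 genes divided by CPM of Cs in the same library (log axis), with 1 point per library and a dotted line at 1. Pcx and Idh3a lie higher in mature adipocytes and the other 6 lower, with Ogdh below 1 in all mature adipocyte libraries and above 1 in all stromal vascular libraries.

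The rest of the cycle moved the same way. Of 11 other cycle enzymes, 10 were tested, and all 10 were higher in mature adipocytes, with a median log2 difference of 1.67. Sucla2, the ATP-forming partner of Suclg1, differed by 1.73, Dld by 1.83 and Sdhb, an iron-sulfur subunit of succinate dehydrogenase, by 1.85. The 22 genes of the respiratory complexes that were listed all passed as higher in mature adipocytes too, with a median of 1.57, among them Cox6c (1.56), Ndufb8 (1.99) and Atp5c1 (1.59).

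Pyruvate reaches the cycle through the mitochondrial pyruvate carrier and pyruvate dehydrogenase. Of 13 such genes, 11 passed as higher in mature adipocytes and 1 as lower, with a median log2 difference of 1.94. The carrier subunits Mpc1 and Mpc2 differed by 2.38 ± 0.09 and 2.61 ± 0.12, and Pdha1 by 2.27 ± 0.11 (SE). Pdp1, a phosphatase that activates pyruvate dehydrogenase, was lower in mature adipocytes by a log2 difference of -1.47 ± 0.08, and Pdk3, a kinase that inhibits it, did not pass (-0.30 ± 0.19, adjusted p = 0.163, limma).

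Of 9 other genes that feed or fill the cycle, 8 passed as higher and 1 as lower, with a median of 2.72. Pcca and Pccb, the subunits of propionyl-CoA carboxylase, differed by 2.94 ± 0.08 and 2.72 ± 0.05, and Mut, which turns methylmalonyl-CoA into succinyl-CoA, by 2.31 ± 0.07. Pcx carries biotin, and 6 of 6 other genes of biotin enzymes and of biotin handling were higher in mature adipocytes. Mccc1 and Mccc2, of the leucine breakdown pathway, differed by 3.27 and 3.17. Acaca, acetyl-CoA carboxylase, read 433 to 1818 CPM in adipocytes and 29.0 to 108 CPM in the stromal vascular libraries. The 4 genes that make or carry lipoate, the cofactor bound to Dlst, were higher as well, among them Gcsh (2.61), Lipt1 (2.01) and Lias (1.44).

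The genes of citrate and malate export and of cytosolic turnover of these acids divided. Of 14, 9 passed as higher in mature adipocytes and 5 as lower, with a median of 2.40. Mdh1, the cytosolic malate dehydrogenase, was 6.49-fold higher, against 3.55-fold for Mdh2, and Aco1 and Idh1, the cytosolic aconitase and isocitrate dehydrogenase, differed by 2.44 and 2.37. Among those lower in mature adipocytes were the aspartate aminotransferases Got1 (-2.36) and Got2 (-0.90), Pck2, the mitochondrial phosphoenolpyruvate carboxykinase (-1.95), and Me3, a mitochondrial malic enzyme (-1.87). Me2, another mitochondrial malic enzyme, differed by -0.21 and turned to between 0.17 and 0.27 under the other 3 scalings. It also missed the threshold without Kdm5c+/– adipocyte library 2, wild-type adipocyte library 1 or the stromal vascular library of either pool 1 (adjusted p up to 0.0639, limma). Of 14 glycolysis genes tested, 11 were higher in mature adipocytes and 2 lower, with Hk2 at 4.05, Ldha at 2.40, Tpi1 at 2.19, Hk1 at -2.64 and Gapdh at -1.52.

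Genes of mitochondrial biogenesis showed no common direction. Of 12 biogenesis genes tested, 5 were higher in mature adipocytes and 5 lower, with a median of 0.04. The coactivators Ppargc1a and Ppargc1b differed by 2.78 and 1.78 and the mitochondrial transcription factor Tfb1m by 1.14. Gabpb1 (-1.96), Pprc1 (-1.25), Nrf1 (-1.23) and Gabpa (-0.77) were lower in mature adipocytes. Polg, the mitochondrial DNA polymerase, differed by -0.43, and by -0.08 to 0.04 under the other scalings. Most genes of mitochondrial membranes and proteostasis, 15 of 17, were higher in mature adipocytes, among them Mfn2 (2.12), Immt (1.56) and Lonp1 (1.25). Tomm20 (-0.31) and Mfn1 (-0.19) passed as lower, and lay at 0.07 to 0.15 and 0.19 to 0.29 under the other scalings. Over all 121 pathway genes tested, 101 were higher in mature adipocytes and 16 lower.

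The scaling of the libraries sets how many genes fall on each side of 0. CPM placed the median gene at -0.45 between fractions, and it lay at -0.09 by median-of-ratios scaling, at 0.11 by quantile normalization and at -0.01 by edgeR with TMM scaling on recovered reads, with 5721 genes called higher and 6550 lower, 6678 and 5542, and 6063 and 6145, in place of 4072 and 8394. The 9 genes passed as higher in mature adipocytes under each. The median over the 9, taken relative to the median over all genes tested, was 2.18 in CPM, 2.21, 1.90 and 2.25. In wild-type libraries alone the log2 difference of Pcx was 5.21 and in Kdm5c+/– libraries alone 4.74.

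The genotype labels did not separate the 9 genes in mature adipocytes. None of the 9 passed, and 0% of 11913 genes passed by limma (664 higher and 1073 lower at an unadjusted p under 0.05, none of them among the 9), with 0 calls by edgeR on recovered reads. The log2 difference of Kdm5c+/– minus wild type was 0.26 ± 0.30 (SE) for Pcx, a ratio of 1.19 with a 95% interval from 0.727 to 1.96, and it was -0.03 without the adipocyte library of wild-type pool 2, 0.06 without that of Kdm5c+/– pool 1, and 0.42 and 0.48 without those of Kdm5c+/– pool 3 and wild-type pool 1. It was 0.22 ± 0.11 for Idh3b (adjusted p = 0.374, limma), 0.14 ± 0.09 for Mdh2 and -0.14 ± 0.14 for Idh3a. Those of Cs, Ogdh, Dlst, Suclg1 and Fh1 lay between -0.03 and 0.06, and the 95% intervals of the 8 cycle genes ran from a ratio of 0.723 (Idh3a) to one of 1.39 (Idh3b). Mdh2 was the only one of the 9 whose genotype groups did not overlap, with 440, 401 and 414 CPM in the Kdm5c+/– adipocytes and 399, 367 and 376 CPM in the wild type (adjusted p = 0.489, limma). Of the 11913 genes, 22.0% had no overlap between 3 and 3. Of the pathway genes, the 3 with the smallest p were Cox5b (0.46), Cox6c (0.39) and Idh3g (0.27), with adjusted p of 0.273, 0.273 and 0.289 by limma. The median difference was 0.05 over the 9 and -0.03 over all genes tested. The summed adipocyte, progenitor and endothelial markers of these groups did not overlap. The sums of macrophage, lymphocyte, pericyte and smooth muscle, mammary epithelium, Schwann cell and skeletal muscle markers did overlap. Adipocyte markers summed to 30603 to 30882 CPM in the Kdm5c+/– adipocytes and 24553 to 27148 CPM in the wild type. Endothelial markers summed to 83.7 to 158 CPM and 198 to 251 CPM in the same groups, and progenitor markers to 63.7 to 69.6 CPM and 78.1 to 146 CPM. No single marker of these 3 lists passed by limma. Of the 8 adipocyte markers 6 were higher in Kdm5c+/– and 2 lower, and all 6 endothelial and all 6 progenitor markers were lower. Their part in these values was not tested.

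In the stromal vascular fraction, again none of the 9 passed, where 0.00725% of 13792 genes did (1 gene, with 285 higher and 758 lower at an unadjusted p under 0.05, none of them among the 9) by limma. Pcx differed by 0.74 ± 0.61 (SE, adjusted p = 0.774, limma), a ratio of 1.66 with a 95% interval from 0.602 to 4.60. A 4-fold higher level of Pcx in the Kdm5c+/– libraries would thus lie within the error of 3 pools against 3. The Pcx difference was 0.22 without wild-type pool 2 and 0.39 without Kdm5c+/– pool 1, and 1.27 and 1.19 without wild-type pool 1 and Kdm5c+/– pool 3. The other 8 differed by -0.01 to 0.09, and their intervals ran from a ratio of 0.837 (Cs) to one of 1.26 (Idh3a). The libraries of the labels overlapped in all 9 genes, while 13.5% of the 13792 genes had no overlap. Adipoq, given above beside Pcx, was over 100 CPM in 2 of the 3 Kdm5c+/– libraries and 1 of the 3 wild-type libraries. The pathway genes with the smallest p were Me3 (-0.53), Ppargc1b (-0.51) and Hk1 (-0.18), none of which passed (lowest adjusted p 0.617, limma).

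**Figure D5:**
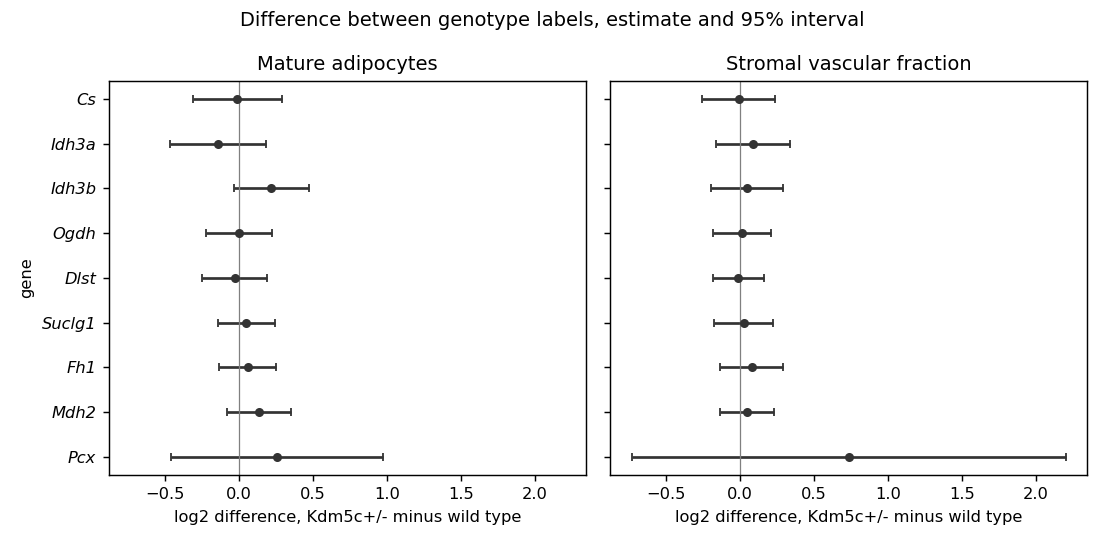
Log2 difference of Kdm5c+/– minus wild type, on the scale of log2(CPM + 1), for the 9 genes in mature adipocytes (left) and the stromal vascular fraction (right), with the estimate and 95% interval of limma. All intervals include 0, and that of Pcx in the stromal vascular fraction is the widest, from -0.73 to 2.20.

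Nor did the genotype difference itself differ detectably between fractions in these genes. For the difference of the differences, 0 of the 9 and 0% of 14193 genes passed by limma (602 larger in mature adipocytes and 665 smaller at an unadjusted p under 0.05, none of them among the 9), and 0 by edgeR. It was -0.48 ± 0.73 (SE) for Pcx, with a 95% interval from -2.09 to 1.13, and 0.04 without the stromal vascular library of wild-type pool 2. It was -0.23 ± 0.18 for Idh3a and 0.17 ± 0.15 for Idh3b, and between -0.02 and 0.09 for the other 6. The pathway genes with the smallest p were Cox5b (0.60), Cox6c (0.40) and Gpi1 (0.42), with adjusted p of 0.445, 0.445 and 0.503. The SE and intervals of this comparison leave the pools unpaired. With the pool as a replicate block, 0 of the 9 passed as well.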

How the data were processed

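The submitters' processing notes name STAR 2.7.2a, the build GRCm38 and edgeR 3.26.8. What counted the reads, and over which annotation, is not given in the sources used here. CPM were deposited by the authors, reads per 1000000 over the genes listed. In each library 100% of the values were whole multiples of 1 read within 0.05 read, and the reads recovered served edgeR as an alternative. The value of 3 reads covers counting error only. The 95% intervals are those of limma and carry the spread between pools.

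The 9 genes and all gene lists were chosen with earlier results of these data known. The test was that of limma 3.58.1 under R 4.3.3 (trend and robust eBayes, two-sided) on log2(CPM + 1), which understates the fold of low genes, for genes that reached 1 CPM in at least 3 of the fitted libraries, with Benjamini-Hochberg adjustment at 0.05. The fractions and the difference of the genotype differences were tested in all 12 libraries, and the genotypes in the 6 libraries of a fraction. Ratios to Cs were tested by exact permutation in Python 3.11.15. The main limma fits were tested on simulated reads. The permutation test was checked on made-up values without overlap, and the alternative settings were not tested in this way. The deviations of the fractions of 1 pool from their group means correlated at 0.169 to 0.278 across genes in all 6 pairs. Fractions of unlike pool number were not compared. The adipocyte libraries of pool 1 of both genotypes, which are different mice, correlated at 0.341. These correlations therefore do not settle whether the numbers pair the fractions, and the pairing is an assumption.

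Named were Kdm5c, the 9 genes, up to 3 genes per list and comparison by smallest p among those called in the list's main direction, all called against it, and, where nothing was called, the 3 pathway genes with the smallest p. The 2 highest of each marker list were also eligible, and the 3 nearest profiles of Pcx and Cs were taken. Alternatives were a pseudocount of 0.25, no filter or a mean of 5 CPM, median-of-ratios and quantile scaling, edgeR 4.0.16, a replicate block, subsets of libraries, all 12 libraries for the genotype tests and leaving out each library. Leaving out the 3 stromal vascular libraries with over 100 CPM of Adipoq was chosen after seeing the data. Some genes that this rule takes are not reported here.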

Additional observations from a re-analysis of the deposited data

How the results depend on the processing

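Between fractions all 9 genes passed as higher in mature adipocytes in every setting tried, and without any 1 library the log2 difference of Pcx was 4.72 to 5.24. With the pool as a replicate block the 9 also passed, with 4088 genes called higher and 8415 lower, and the block changed no call of the 9. Quantile normalization gave 6678 genes higher and 5542 lower. By median-of-ratios scaling, quantile normalization and edgeR, the fraction difference of Me2 was 0.17, 0.27 and 0.26, that of Tomm20 0.066, 0.087 and 0.15 and that of Mfn1 0.20, 0.19 and 0.29, and that of Polg was 0.041 by edgeR. Ratios to Cs in wild-type libraries alone (3 against 3, smallest p 0.1) gave 0 calls, and all 8 differences kept their sign.

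In the genotype comparisons none of the 9 passed in any setting. Numbers shared between genotypes are taken to name pools only. Their deviations correlated at 0.34, -0.03 and -0.00134 in mature adipocytes and at 0.18, -0.28 and -0.20 in the stromal vascular fraction. The replicate block took the 1 stromal vascular call to 0. With all 12 libraries in the fit, 1 gene was called lower in mature adipocytes, and 2 higher and 2 lower in the stromal vascular fraction. Leaving out 1 library gave 0 to 2 genes higher and 0 to 1 lower in mature adipocytes, 0 to 0 higher in the stromal vascular fraction, and 0 to 1 larger and 0 to 6 smaller for the difference of the differences.

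Small genotype differences changed sign. By the same 3 settings, Cs was 0.035, 0.052 and 0.023 in mature adipocytes and 0.028, 0.039 and 0.030 in the stromal vascular fraction. Dlst was 0.017 (median-of-ratios) and 0.010 (edgeR) in mature adipocytes and 0.027, 0.042 and 0.024 in the stromal vascular fraction. The difference of the differences of Cs was -0.0031 (median-of-ratios) and -0.027 (edgeR). In mature adipocytes, without any 1 library, the difference was -0.098 to 0.092 for Cs, -0.065 to 0.036 for Dlst, -0.018 to 0.021 for Ogdh and -0.028 to 0.48 for Pcx. In the stromal vascular fraction the ranges were -0.099 to 0.086 for Cs, -0.039 to 0.033 for Dlst, -0.030 to 0.15 for Idh3b, -0.0036 to 0.11 for Mdh2, -0.019 to 0.074 for Ogdh and -0.032 to 0.065 for Suclg1. For the difference of the differences they were -0.095 to 0.10 for Cs, -0.061 to 0.048 for Dlst, -0.073 to 0.041 for Fh1, -0.072 to 0.021 for Ogdh, -1.01 to 0.037 for Pcx and -0.018 to 0.082 for Suclg1. The cause of these changes was not tested. With 3 pools per group, differences of the size of those of the cycle genes were within the error.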
